A study of Homo sapiens with 9 samples.

Results

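The 7 genes described here, SLBP, NPAT, CASP8AP2, LSM10, LSM11, ZNF473 and ERI1, encode factors for the transcription and 3′ end processing of histone mRNA. They were chosen by symbol from the 36601 genes counted in each library, and all 7 were found in all 6 libraries. The cells were U2OS, a human osteosarcoma line, measured by single-cell RNA sequencing with unique molecular identifiers (UMIs) at transcript 3′ ends. In each of the 6 lines RPB1, the largest subunit of RNA polymerase II, carried HaloTag or Dendra2 at its N-terminus and a C-terminal domain (CTD) of 25, 52 or 70 repeats. The groups were HaloTag-RPB1-25R, HaloTag-RPB1-52R, HaloTag-RPB1-70R, Dendra2-RPB1-25R, Dendra2-RPB1-52R and Dendra2-RPB1-70R. Every group had received α-amanitin, a toxin that inhibits RNA polymerase II, at 1 µg/ml for 6 days, so no untreated cells were compared. HaloTag is an enzyme that binds a synthetic ligand, and Dendra2 is a photoconvertible fluorescent protein. There was 1 library per group, and the labels name no separate cultures or clones, so p-values measure only the spread between these libraries. HaloTag and Dendra2 libraries were sequenced at different times, so tag and sequencing campaign cannot be told apart.

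Replication-dependent histone genes are transcribed mainly in S phase, and their mRNAs end in a conserved stem-loop in place of a poly(A) tail. NPAT, a substrate of cyclin E with CDK2, activates histone transcription at nuclear histone locus bodies, where CASP8AP2, also called FLASH, is needed for both transcription and cleavage. SLBP binds the stem-loop, and the U7 small nuclear ribonucleoprotein, whose ring holds LSM10 and LSM11 in place of a pair of common Sm proteins, pairs with the pre-mRNA downstream of the cleavage site. ZNF473, also called ZFP100, links SLBP to LSM11, and ERI1, a 3′ exonuclease, trims the stem-loop end and acts in histone mRNA decay.

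In GRCh38, with GENCODE v44 spans, SLBP lay on chromosome 4 (1692731 to 1712344, minus strand), CASP8AP2 on chromosome 6 (89829894 to 89874436, plus strand) and LSM10 on chromosome 1 (36391238 to 36397908, minus strand). LSM11 lay on chromosome 5 (157743712 to 157760709, plus strand) and ZNF473 on chromosome 19 (50025714 to 50053414, plus strand). NPAT lay on chromosome 11 (108157215 to 108222638, minus strand), and its start faced that of ATM, the DNA damage kinase gene on the plus strand (108223044 to 108369102), with 405 bases between the annotated ends.

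RefSeq promoter windows of GRCh38.p14, from 250 bases before to 50 after the start, were matched by symbol for 5 of the 7 genes. The windows of the 3 genes with the largest S phase increase described below, SLBP, NPAT and CASP8AP2, are printed 5′ to 3′ on the gene's strand beside that of LSM10, which showed none. They lie at chr4:1712270-1712569 (SLBP, minus strand), chr11:108222589-108222888 (NPAT, minus strand), chr6:89829630-89829929 (CASP8AP2, plus strand) and chr1:36397859-36398158 (LSM10, minus strand). Capitals mark matches on either strand to an E2F core, a CCAAT box or a CHR element, and adjoining capitals can be overlapping matches. An E2F core was spelled TTCCCGC in its first form, TTGGCGC in another form, TTCGCGC in another and TTGCCGC in the last. The letters of the CCAAT box were CCAAT, and those of the CHR element were TTTGAA.
SLBP: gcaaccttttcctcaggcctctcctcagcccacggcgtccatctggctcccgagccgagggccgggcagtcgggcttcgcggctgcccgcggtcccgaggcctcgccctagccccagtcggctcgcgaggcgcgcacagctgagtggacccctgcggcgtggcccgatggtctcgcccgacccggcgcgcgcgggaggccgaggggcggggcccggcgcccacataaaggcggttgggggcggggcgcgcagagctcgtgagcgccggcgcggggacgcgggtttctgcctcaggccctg
NPAT: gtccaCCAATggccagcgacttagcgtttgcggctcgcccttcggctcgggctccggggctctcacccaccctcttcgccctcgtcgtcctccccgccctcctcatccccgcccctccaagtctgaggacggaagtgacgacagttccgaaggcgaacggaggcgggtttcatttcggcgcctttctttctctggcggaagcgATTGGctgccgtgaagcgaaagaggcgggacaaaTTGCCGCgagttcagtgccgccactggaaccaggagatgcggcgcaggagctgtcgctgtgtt
CASP8AP2: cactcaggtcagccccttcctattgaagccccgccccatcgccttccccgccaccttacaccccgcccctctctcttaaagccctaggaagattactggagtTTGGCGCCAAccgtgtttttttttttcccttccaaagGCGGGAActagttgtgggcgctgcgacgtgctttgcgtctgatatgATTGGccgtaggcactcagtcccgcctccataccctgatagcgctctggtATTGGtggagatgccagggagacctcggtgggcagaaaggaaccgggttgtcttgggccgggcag
LSM10: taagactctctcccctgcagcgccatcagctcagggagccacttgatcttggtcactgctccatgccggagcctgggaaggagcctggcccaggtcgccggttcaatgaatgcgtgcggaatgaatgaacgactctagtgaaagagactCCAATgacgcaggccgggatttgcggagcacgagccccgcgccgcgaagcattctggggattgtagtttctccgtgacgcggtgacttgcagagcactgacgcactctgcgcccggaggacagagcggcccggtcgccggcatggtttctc
CASP8AP2 held 3 E2F core matches, of which 2 overlap on opposite strands, and 2 CCAAT boxes, while NPAT held 1 E2F core match and 2 CCAAT boxes. LSM10 held 1 CCAAT box, and SLBP held none of the searched letters in this window. Of all 35116 promoter windows, 13% held an E2F core match, 34.6% a CCAAT box and 15.2% a CHR element. The NPAT window shares 72 bases with that of ATM. These matches describe the letters only.

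The libraries held between 2718 and 4677 kept cells and 52553686 to 58442223 UMIs, with a median per cell of 10812 to 16020 UMIs in HaloTag and 15770 to 18739 in Dendra2 libraries. Cells were scored for phase from 38 S and 53 G2/M genes, none of them among the 7, after thinning to 5000 UMIs. The S list in common use holds SLBP and CASP8AP2, which were removed from it with NASP, CHAF1B and CCNE2. S scoring cells made up 20.4% to 25.4% of HaloTag and 28.4% to 34.7% of Dendra2 cells, G1 scoring cells 38.4% to 41.0% and 17.1% to 22.6%. Without thinning, S shares were 16.5% to 24.0% and 27.2% to 31.5%. Between 11.7% and 19.9% of cells lay near the phase boundary. At most 7 cell barcodes were shared between any pair of libraries. The labels call the cells epithelial, and KRT8 and KRT18 were abundant. Of 10 epithelial markers 6 averaged under 1 CPM (the usual depth-scaled count unit), among them CDH1 and ESRP1. Of 10 mesenchymal and osteoblast markers 8 averaged at least 1 CPM, with VIM between 2490 and 3730 CPM. The exceptions, COL1A2 and TWIST1, averaged under 1 CPM. All 6 leukocyte markers averaged under 1 CPM.

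Levels are given in CPM, UMIs relative to the TMM-scaled library total, summed over the kept cells of a library. A 3′ count scores each molecule once, so levels of different genes were not divided by transcript length. LSM10 had the highest mean (79.1 CPM), before SLBP (57.1), ERI1 (22.2), CASP8AP2 (21.2), NPAT (18.1), LSM11 (7.47) and ZNF473 (5.23). Ranges over the 6 libraries overlapped between LSM10 and SLBP, among ERI1, CASP8AP2 and NPAT, and between LSM11 and ZNF473, so those neighbours are not ordered beyond their spread. Exact Poisson intervals, which cover counting error only, were narrow for SLBP (54.75 to 58.6 CPM from 3362 UMIs in HaloTag 25R) and wider for ZNF473 (3.66 to 4.71 CPM from 247 UMIs in the same library).

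**Figure D1:**
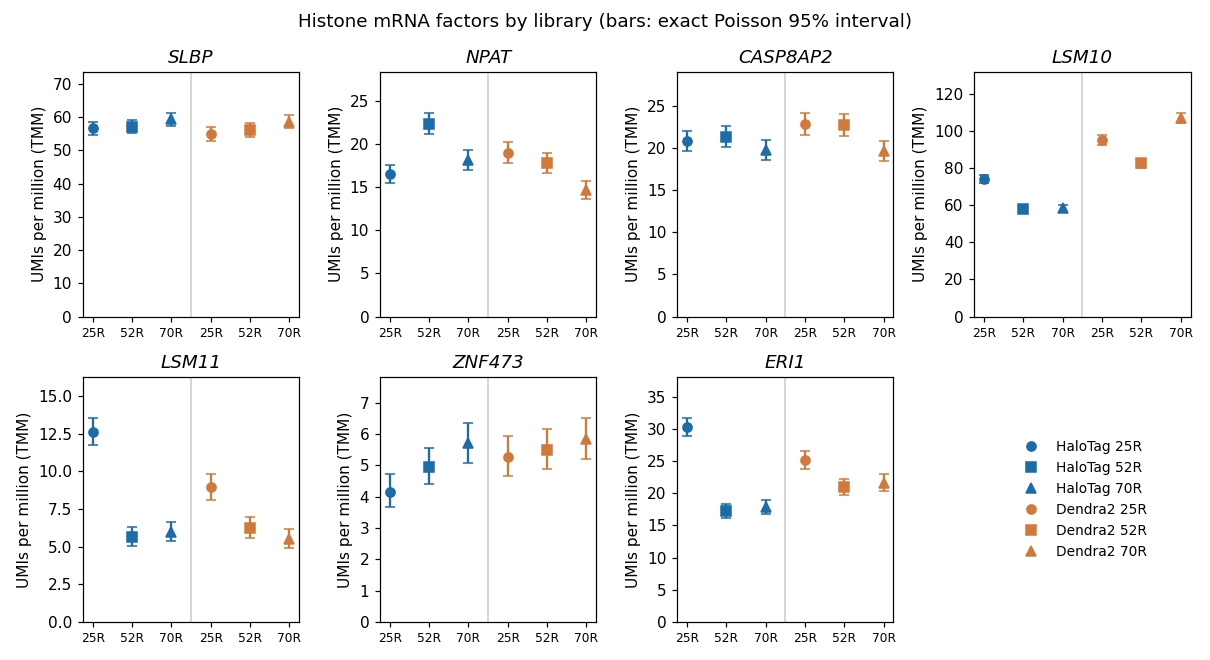
Level of each gene (vertical axis, TMM-scaled CPM, from 0) in each library by CTD length, HaloTag left of the grey line and Dendra2 right, with exact Poisson 95% intervals. SLBP is level at 55.0 to 59.3, LSM10 is higher in all Dendra2 libraries, and LSM11 and ERI1 are highest at 25R within each tag.

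SLBP, the stem-loop binding protein, was close to level across the lines. The HaloTag libraries gave 56.65 CPM at 25R, 57.2 at 52R and 59.3 at 70R, and the Dendra2 libraries 55.0, 56.15 and 58.65 CPM in the same order. Both tags overlapped, and the highest library was 1.08-fold the lowest. Of 8183 genes with a mean of at least 10 CPM, 0.159% had a smaller highest-to-lowest ratio, and the median ratio was 1.55. The same libraries differed in the summed level of 71 cluster histone genes, 59 of which had a UMI: 489, 907 and 770 CPM with HaloTag against 1632, 2882 and 1621 CPM with Dendra2, without overlap. Only the transcripts that poly(A) capture retains are counted there.

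The edgeR fit of tag plus CTD length gave SLBP a difference of 0.03 log2 (HaloTag minus Dendra2, SE 0.12, 95% interval −0.25 to 0.31, adjusted p = 0.913). None of the 7 genes passed an adjusted p of 0.05 between tags, where 0.267% of 18761 genes did. LSM10 alone had an unadjusted p under 0.05, against 19.5% of all genes, and DESeq2 called 1 of the 7, again LSM10. DESeq2 called 1158 of the 18761 genes, where edgeR called 50. The median difference of the 7 was −0.07 log2, and that of all genes 0.03.

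LSM10, the Sm-like subunit found in the U7 ring but not in spliceosomal rings, had the largest difference between tags. With HaloTag it measured 74.1 CPM at 25R, 58.1 at 52R and 58.2 at 70R, and with Dendra2 94.98, 82.5 and 107 CPM. Every Dendra2 library was above every HaloTag library, and how many of all genes separate the tags this way was not counted. Means were 63.4 ± 9.19 (SD, n = 3) and 94.8 ± 12.3 CPM (SD, n = 3), and the fitted difference was −0.58 log2 (SE 0.14, 95% interval −0.93 to −0.23, lower with HaloTag in 3 of 3 CTD pairs). Its adjusted p was 0.14 with edgeR, unadjusted p = 0.0061, and 0.0222 with DESeq2, so the call depends on the tool. The range of its adjusted p over 14 alternatives was 0.0222 to 0.433. In summed libraries, fewer cells with a transcript and less RNA per cell cannot be told apart. In single cells thinned to equal depth, LSM10 was detected in 30.5%, 24.6% and 25.4% of HaloTag cells from 25R to 70R. With Dendra2 the shares were 35.6%, 32.1% and 39.9%. The thinned cells averaged 0.382, 0.291 and 0.294 LSM10 UMIs with HaloTag, and 0.445, 0.387 and 0.515 with Dendra2. Both measures were thus lower in every HaloTag library, and the part of each in the summed difference was not tested.

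The 5 Sm proteins that share the U7 ring with LSM10 and LSM11 (SNRPB, SNRPD3, SNRPE, SNRPF and SNRPG, also parts of spliceosomal rings) all had fitted differences below 0 between tags, with a median of −0.46 log2, and none passed the threshold. SNRPF was among the 2 pathway genes with the smallest p, at 301 ± 36.8 CPM with HaloTag and 459 ± 23.1 CPM with Dendra2 (SD, n = 3 each; −0.61 log2, adjusted p = 0.121). The other was E2F1, an S phase transcription factor, at 23.0 ± 2.43 and 35.4 ± 2.11 CPM (SD, n = 3 each; −0.63 log2, adjusted p = 0.117). DESeq2 called both, with an adjusted p of 0.00535 and 0.00459, among 1158 of 18761 genes that it called. In all, 0 of 50 tested pathway genes passed with edgeR, and 14 had an unadjusted p under 0.05.

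NPAT ran from 14.7 to 22.4 CPM without separating the tags. From 25R to 70R the HaloTag libraries gave 16.6, 22.4 and 18.1 CPM, and the Dendra2 libraries 19.0, 17.8 and 14.7 CPM. For CASP8AP2 the values were 20.8, 21.3 and 19.7 CPM with HaloTag, and 22.8, 22.7 and 19.6 CPM with Dendra2. CASP8AP2 varied 1.16-fold, a ratio that 2.64% of genes with at least 10 CPM undercut, and NPAT 1.52-fold, near the median gene. Fitted tag differences were 0.15 log2 for NPAT (SE 0.16, adjusted p = 0.652) and −0.07 log2 for CASP8AP2 (SE 0.13, adjusted p = 0.789). ZNF473 was at 4.16, 4.95 and 5.70 CPM with HaloTag and 5.27, 5.49 and 5.83 CPM with Dendra2, overlapping ranges with a difference of −0.17 log2 (SE 0.19, adjusted p = 0.639). For LSM11 and ERI1 the tag differences were 0.16 log2 (SE 0.19, adjusted p = 0.679) and −0.10 log2 (SE 0.16, adjusted p = 0.77).

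CTD length was compared over both tags, and the comparisons share libraries. LSM11 and ERI1, a U7 ring subunit and the exonuclease, were highest at 25R within each tag. LSM11 was at 12.6 CPM in HaloTag 25R and 5.62 and 5.97 CPM in HaloTag 52R and 70R. With Dendra2 the values were 8.93 CPM at 25R, 6.21 at 52R and 5.49 at 70R. Both 25R libraries were thus above all 4 others. ERI1 values from 25R to 70R were 30.3, 17.2 and 17.8 CPM with HaloTag, and 25.2, 21.0 and 21.6 CPM with Dendra2. Its 25R libraries were also above all others. The share of all genes with both 25R libraries above all others was not counted.

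Against 52R, the 25R difference was 0.85 log2 for LSM11 (SE 0.24, 95% interval 0.27 to 1.42, adjusted p = 0.271) and 0.55 log2 for ERI1 (SE 0.20, 95% interval 0.06 to 1.04, adjusted p = 0.344), higher in 2 of 2 tags. Neither passed the threshold, and unadjusted p was 0.0112 and 0.0327. The 70R against 25R differences were −0.90 log2 for LSM11 (SE 0.24, adjusted p = 0.28) and −0.50 log2 for ERI1 (SE 0.20, adjusted p = 0.392). Within tags the 25R minus 52R difference in LSM11 was 1.16 log2 with HaloTag and 0.52 log2 with Dendra2, and in ERI1 0.81 and 0.27 log2. Without HaloTag-RPB1-25R the fitted difference from 52R was 0.575 log2 for LSM11 and 0.255 log2 for ERI1, and without Dendra2-RPB1-25R it was 1.11 and 0.826 log2. For 70R against 25R the same fits gave −0.618 log2 for LSM11 and −0.204 for ERI1 without HaloTag-RPB1-25R, and −1.15 and −0.774 log2 without Dendra2-RPB1-25R.

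**Figure D2:**
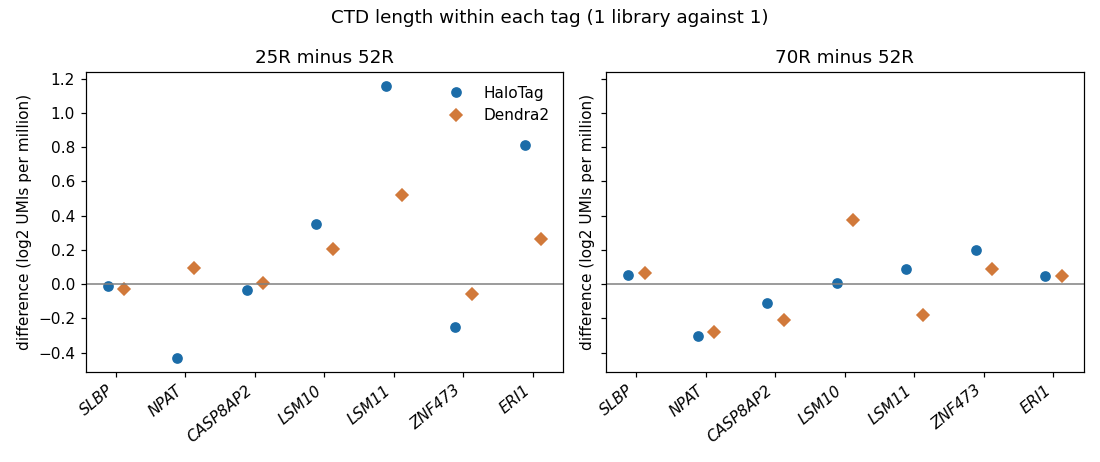
Difference in log2 CPM from the 52R library of the same tag for 25R (left) and 70R (right), 1 library against 1, for each gene. LSM11 and ERI1 are above 0 at 25R in both tags, at 1.16 and 0.52 and at 0.81 and 0.27.

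With edgeR 0 of 7 genes passed for 25R against 52R, 70R against 52R or 70R against 25R, and DESeq2 called 0 in each. Of all genes, 0.0426% passed with edgeR for 25R against 52R, 0% for 70R against 52R and 0% for 70R against 25R. DESeq2 called far more, 507, 69 and 467 of 18761 genes in the same order. Unadjusted p was under 0.05 for 2 of the 7 (25R against 52R), 0 (70R against 52R) and 2 (70R against 25R), and both times these were LSM11 and ERI1. Over all genes those shares were 13%, 4.65% and 12.4%. SLBP differed by −0.02 log2 between 25R and 52R (95% interval −0.37 to 0.32) and by 0.06 log2 between 70R and 52R (−0.29 to 0.40). For NPAT, CASP8AP2, LSM10 and ZNF473 the 25R against 52R differences were −0.165, −0.01, 0.28 and −0.15 log2, and the 70R against 52R differences −0.29, −0.16, 0.20 and 0.15 log2. No pathway gene passed either with edgeR, and 4, 1 and 5 of 50 had an unadjusted p under 0.05, which is no larger a share than over all genes. CPSF2, a subunit of the cleavage complex, was lowest at 25R, with 16.3, 27.85 and 33.3 CPM from 25R to 70R with HaloTag, and 14.3, 27.8 and 29.4 CPM with Dendra2. Its 25R against 52R difference was −0.87 log2 (adjusted p = 0.206), and its 70R against 25R difference 1.03 log2 (adjusted p = 0.2), which DESeq2 called with adjusted p = 0.00403 and 0.000205. YY1, a transcription factor, followed at −0.55 log2 (adjusted p = 0.263) and 0.76 log2 (adjusted p = 0.229), and DESeq2 called the latter (adjusted p = 0.00749). For 70R against 52R the smallest p among pathway genes were those of SNRPD3 (0.43 log2) and CPSF3, the cleavage endonuclease (−0.33 log2), neither past the threshold.

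For SLBP, NPAT, CASP8AP2, ERI1 and ZNF473 the fitted differences of S and of G2/M from G1 scoring cells exceeded those between tags or CTD lengths. For LSM10 and LSM11 they did not. Cells of each library were summed by phase, giving 18 sums, and tested with edgeR with library as a term. Of the 7 genes 6 were higher in S than in G1 scoring cells, in 6 of 6 libraries each, and LSM10 did not pass. The background is broad: 55.4% of 16526 tested genes passed, 26.1% as higher in S, so a call alone says little about a gene. The median of the 7 was 0.86 log2, and that of all genes −0.05 log2. The scored phase is a range of 2 scores, not a sorted phase.

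SLBP rose most. From 25R to 70R, G1 scoring cells gave 36.9, 31.85 and 34.7 CPM with HaloTag, and 40.1, 31.6 and 35.8 CPM with Dendra2. S scoring cells gave 96.8, 94.7 and 103 CPM with HaloTag, and 76.9, 78.4 and 83.9 CPM with Dendra2. G2/M scoring cells gave 54.3, 52.7 and 55.6 CPM with HaloTag, and 48.0, 48.99 and 53.5 CPM with Dendra2. The 3 phases did not overlap across libraries, with S highest, G2/M between and G1 lowest in each. The S against G1 difference was 1.35 log2 (SE 0.06, adjusted p = 5.17e-13) and the G2/M against G1 difference 0.59 log2 (SE 0.06, adjusted p = 2.55e-08). The latter was 0.91 log2 with cells away from the phase boundary.

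NPAT and CASP8AP2 were also highest in S, but their phase ranges overlapped more. NPAT lay between 9.11 and 14.4 CPM in G1, 19.1 and 31.9 CPM in S and 14.2 and 22.4 CPM in G2/M scoring cells, and within each of the 6 libraries S was above G2/M and G2/M above G1. Its S against G1 difference was 1.02 log2 (SE 0.06, adjusted p = 1.85e-11). CASP8AP2 lay between 12.1 and 20.2 CPM in G1, 24.7 and 33.8 CPM in S and 18.2 and 22.2 CPM in G2/M, with S above G2/M in 6 of 6 libraries and G2/M above G1 in 5 of 6, the exception being Dendra2 25R (20.2 CPM in G1, 20.1 in G2/M). Its S against G1 difference was 1.08 log2 (SE 0.09, adjusted p = 2.87e-09). Their G2/M against G1 differences were 0.56 log2 for NPAT and 0.47 log2 for CASP8AP2 (adjusted p = 3.95e-08 and 0.000108).

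The processing factors ERI1, ZNF473 and LSM11 rose in S and stayed up in G2/M. ERI1 differed by 0.86 log2 in S and 0.83 log2 in G2/M (SE 0.06 and 0.05, adjusted p = 1.16e-10 and 5.24e-11), and G2/M was below S in 4 of 6 libraries. ZNF473 differed by 0.80 log2 in S and 0.93 log2 in G2/M (SE 0.12 and 0.11, adjusted p = 9.36e-06 and 2.34e-07), with G2/M below S in 1 of 6. LSM11 differed by 0.40 log2 in S and 0.36 log2 in G2/M (SE 0.07 each, adjusted p = 0.000107 and 0.000103), with G2/M below S in 4 of 6. Of the 7 genes 6 were called higher in G2/M than in G1, where 63.4% of genes passed and 28.9% were higher.

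LSM10 was level across the phases in every library, although it is the partner of LSM11 in the U7 ring. Its S against G1 difference was 0.00 log2 (SE 0.03, 95% interval −0.07 to 0.07, adjusted p = 0.981) and its G2/M against G1 difference −0.01 log2 (95% interval −0.08 to 0.05, adjusted p = 0.72). In G1, S and G2/M scoring cells HaloTag 25R gave 74.5, 75.8 and 74.1 CPM, and Dendra2 70R gave 103, 109.5 and 107 CPM. The lower level with HaloTag was present in each phase: 58.0 to 74.5 against 82.3 to 103 CPM in G1, 56.4 to 75.8 against 85.05 to 109.5 CPM in S, and 56.6 to 74.1 against 81.5 to 107 CPM in G2/M. The tags did not overlap in any phase, and the share of all genes that do so was not counted.

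**Figure D3:**
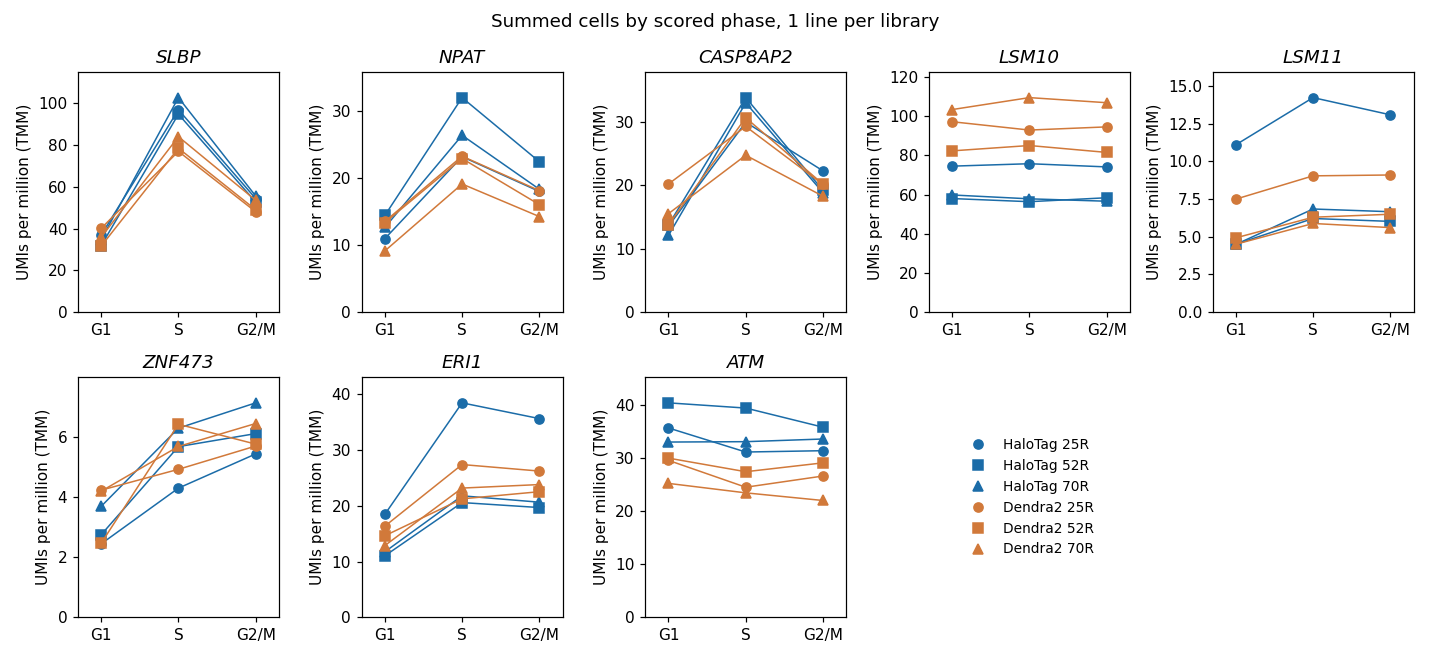
Level (vertical axis, TMM-scaled CPM, from 0) in G1, S and G2/M scoring cells, 1 line per library, for the 7 genes and ATM. SLBP, NPAT and CASP8AP2 peak in S, ERI1, ZNF473 and LSM11 stay up in G2/M, and LSM10 and ATM run nearly flat.

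NPAT and ATM, which share the region between their starts, moved differently. ATM measured 32.7 CPM at 25R, 38.5 at 52R and 33.3 at 70R with HaloTag, and 26.8, 28.6 and 23.15 CPM with Dendra2. The HaloTag libraries were all above the Dendra2 libraries, but the difference of 0.41 log2 did not pass (SE 0.13, adjusted p = 0.18). The share of all genes that separate the tags this way was not counted. Between S and G1 scoring cells ATM differed by −0.12 log2 (SE 0.05, adjusted p = 0.0444) where NPAT rose by 1.02 log2, and between G2/M and G1 by −0.12 log2. The call on ATM in S was lost in 8 of 11 alternatives, with adjusted p between 0.0415 and 0.229, among them the fits without HaloTag-RPB1-25R (−0.08 log2), HaloTag-RPB1-52R (−0.12), Dendra2-RPB1-25R (−0.11) and Dendra2-RPB1-70R (−0.10). The call in G2/M was lost without HaloTag-RPB1-25R, HaloTag-RPB1-52R or Dendra2-RPB1-70R, at −0.07 to −0.08 log2, and also with DESeq2 (adjusted p = 0.0621), no filter (0.375) and no thinning (0.0856).

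The rise of SLBP and CASP8AP2 in S was larger with HaloTag, short of the threshold. From 25R to 70R, SLBP differed between S and G1 by 1.39, 1.57 and 1.56 log2 with HaloTag, and by 0.94, 1.31 and 1.23 log2 with Dendra2. CASP8AP2 differed by 1.14, 1.29 and 1.44 log2 with HaloTag, and by 0.53, 1.15 and 0.67 log2 with Dendra2. The HaloTag values of SLBP were all above the Dendra2 values, and those of CASP8AP2 overlapped between 1.14 and 1.15 log2. How many of all genes separate as SLBP does was not counted. The edgeR test of the tag by phase term gave 0.34 log2 for SLBP (SE 0.09, adjusted p = 0.065) and 0.52 log2 for CASP8AP2 (SE 0.14, adjusted p = 0.0751). The terms of NPAT (0.21 log2), ERI1 (0.23), ZNF473 (0.23), LSM11 (0.11) and LSM10 (−0.06) had adjusted p from 0.491 to 0.913. None of the 7 passed, against 1.11% of 17012 genes, and 2 had an unadjusted p under 0.05, as did 10% of all genes.

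These 2 genes sit at the edge of the call. DESeq2 called both (adjusted p = 0.0264 and 0.0419), as did the fit without HaloTag-RPB1-25R (0.00492 and 0.00521), that without Dendra2-RPB1-52R (0.0259 and 0.0151) and that with no filter on low counts (0.0245 and 0.00694). Neither gene passed without HaloTag-RPB1-52R (0.213 and 0.171), HaloTag-RPB1-70R (0.261 and 0.308), Dendra2-RPB1-25R (0.268 and 0.354) or Dendra2-RPB1-70R. Over all genes 224 of 17012 passed with DESeq2 and 371 of 29643 with no filter. Without HaloTag-RPB1-25R 506 of 16494 passed, and without Dendra2-RPB1-52R 171 of 16832. With phases scored without thinning, the SLBP term was 0.105 log2 (adjusted p = 0.846), and with cells away from the phase boundary to 0.13 log2 (adjusted p = 0.772). For SLBP the fit with library totals also passed (adjusted p = 0.0463). CASP8AP2 gave 0.46 and 0.42 log2 in those other phase calls (adjusted p = 0.223 and 0.363).

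**Figure D4:**
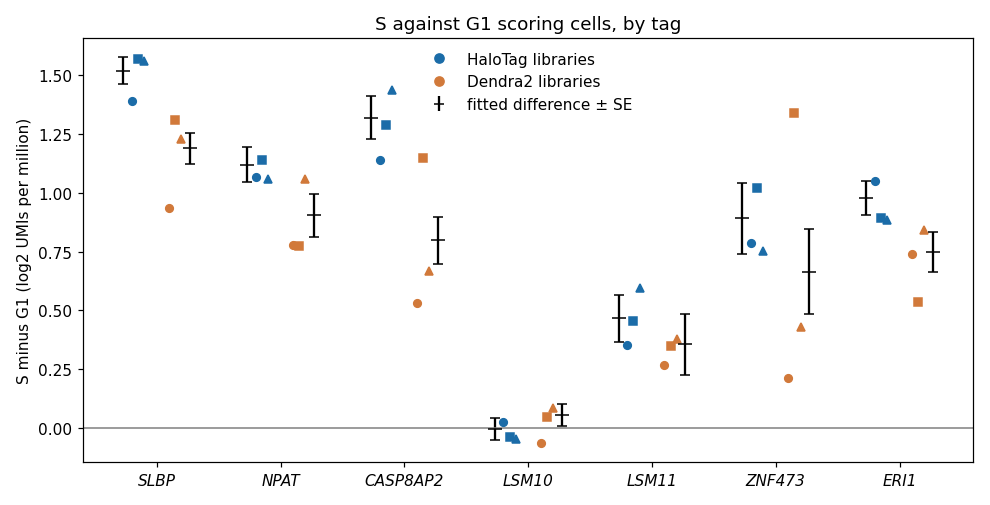
S minus G1 difference in log2 CPM for each gene, points for single libraries (circle 25R, square 52R, triangle 70R) and black bars for the fitted difference of each tag ± SE. SLBP was fitted at 1.52 with HaloTag and 1.19 with Dendra2, CASP8AP2 at 1.32 and 0.80, and LSM10 lies at 0.

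The tag comparison was repeated within each phase, a choice made after the values above had been seen. In S scoring cells SLBP was higher with HaloTag without overlap, by 0.31 log2 (SE 0.12, adjusted p = 0.292). The share of all genes without overlap there was not counted. In G1 scoring cells its difference was −0.02 log2 (SE 0.15, adjusted p = 0.965). None of the 7 passed in any phase, and 0.34%, 0.211% and 0.0658% of all genes did in S, G1 and G2/M scoring cells. LSM10 differed by −0.59, −0.53 and −0.58 log2 in those 3 sets of cells, with an unadjusted p of 0.00681, 0.00746 and 0.00748. In S scoring cells SLBP and LSM10 had an unadjusted p under 0.05, and in the other sets LSM10 did, where 16.1%, 17.5% and 15% of all genes had one in S, G1 and G2/M scoring cells. DESeq2 was not run within phases. Of the 38 genes of the S score, 38 were lower with HaloTag in G1 scoring cells, by a median of −0.60 log2. In S and G2/M scoring cells 16 and 13 of the 38 were above 0, with medians of −0.03 and −0.06 log2. None of the 38 passed the threshold in any phase. The part of these genes, of phase shares and of depth in the SLBP values was not tested.

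Most other genes of the histone pathway also followed phase. Of 50 tested, 36 were higher and 5 lower in S than in G1 scoring cells, with a median of 0.36 log2. Of all genes 26.1% were higher and 29.3% lower. The histone chaperone genes (5 of 6 higher, median 1.54 log2) and the shared Sm proteins (5 of 5, median 0.48 log2) had no member called lower. Nor had the cleavage complex (6 of 8 higher) or the genes for histone mRNA and SLBP turnover (8 of 11 higher). The genes for histone transcription were 10 of 14 higher and 2 lower. Of the 5 cap, nuclear and translation partners 2 were higher and 2 lower (median −0.04 log2). CCNE2, a cyclin that drives NPAT phosphorylation, differed by 3.23 log2, CDK1, a kinase that marks SLBP for degradation, by 2.77 log2, and CCNA2, its cyclin partner, by 2.72 log2. HINFP, which activates histone H4 genes, fell by 0.54 log2, CTIF, a translation factor of the nuclear cap complex, by 0.22 log2, and MIF4GD, the SLBP-interacting translation factor, by 0.20 log2. In G2/M 41 of the 50 were higher and 3 lower, against 28.9% and 34.5% of all genes, led by CCNA2 (3.96 log2), CCNF, a ubiquitin ligase subunit that targets SLBP (3.72 log2), and CDK1 (3.37 log2). CTIF and MIF4GD fell there by 0.30 and 0.15 log2, as did ATM by 0.12 log2. The S call on CTIF was lost without HaloTag-RPB1-25R (−0.18 log2), and that on MIF4GD without HaloTag-RPB1-25R (−0.18), HaloTag-RPB1-52R (−0.16) or Dendra2-RPB1-70R (−0.20). The G2/M call on MIF4GD was lost when either 25R library, HaloTag-RPB1-52R or Dendra2-RPB1-70R was left out (−0.09 to −0.14 log2). It was lost in 8 of 11 alternatives in all, among them DESeq2 (adjusted p = 0.0814), no filter (0.243), no thinning (0.111) and cells away from the phase boundary (0.0668).

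The genes most like SLBP, LSM10 and ERI1, the 3 with the highest mean level, were found by Pearson r over the 18 library and phase sums, centred on each library, among 8193 genes of at least 10 CPM. For SLBP they were WDR76 (0.996), TIPIN (0.993) and FAM111B (0.992), of which the first 2 belong to the S score. For ERI1 they were SCARA3 (0.991), UBL7-AS1 (0.991) and TRA2B (0.99). LSM10 had no close match, with ACO1 at 0.816, MCCC2 at 0.76 and PTPN14 at 0.722. The sums share libraries and phase calls, so the values only describe a shape.

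The authors' deposited tables give a burst frequency K per gene and library, with lower and upper values, and a mean, from which a burst size (mean divided by K) was taken. Transcription in bursts alternates active and silent periods of a gene, and K stands for how often the active one comes. The table's squared coefficient of variation equals 1/mean + 1/K to within 0.859% for these genes, and its means are UMIs per cell not scaled for depth. K therefore holds all variation between cells beyond counting noise, depth and phase included.

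In the authors' deposited table, SLBP had a K of 1.87, 1.79 and 1.54 in HaloTag 25R, 52R and 70R and of 2.23, 2.22 and 2.01 in the Dendra2 libraries. NPAT had a K of 1.80, 1.4995 and 1.56 and of 2.63, 2.99 and 2.29 in the authors' deposited table. The estimates of the tags did not overlap for either gene, but the limits did. For SLBP the authors' deposited table has an upper value of 2.21 in HaloTag 25R and a lower value of 1.71 in Dendra2 70R. For NPAT the same limits were 3.02 and 1.42 in the authors' deposited table. How many of all genes separate this way was not counted. CASP8AP2 had a K of 1.61, 1.33 and 1.32 and of 3.40, 2.299 and 1.53, LSM10 of 2.55, 3.15 and 3.10 and of 2.59, 3.84 and 3.66, and ERI1 of 1.85, 1.67 and 2.15 and of 2.72, 2.65 and 2.23, as the authors' deposited table gives them. Estimates of the tags overlapped in CASP8AP2 and LSM10, and not in ERI1. The ERI1 limits did overlap, with an upper value of 4.70 in HaloTag 70R and a lower value of 1.55 in Dendra2 70R in the authors' deposited table. For LSM11 and ZNF473 the upper value in the authors' deposited table was up to 1032 and 788 times the lower one, so K was not determined in every library. For SLBP that ratio was 1.37 to 1.498.

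**Figure D5:**
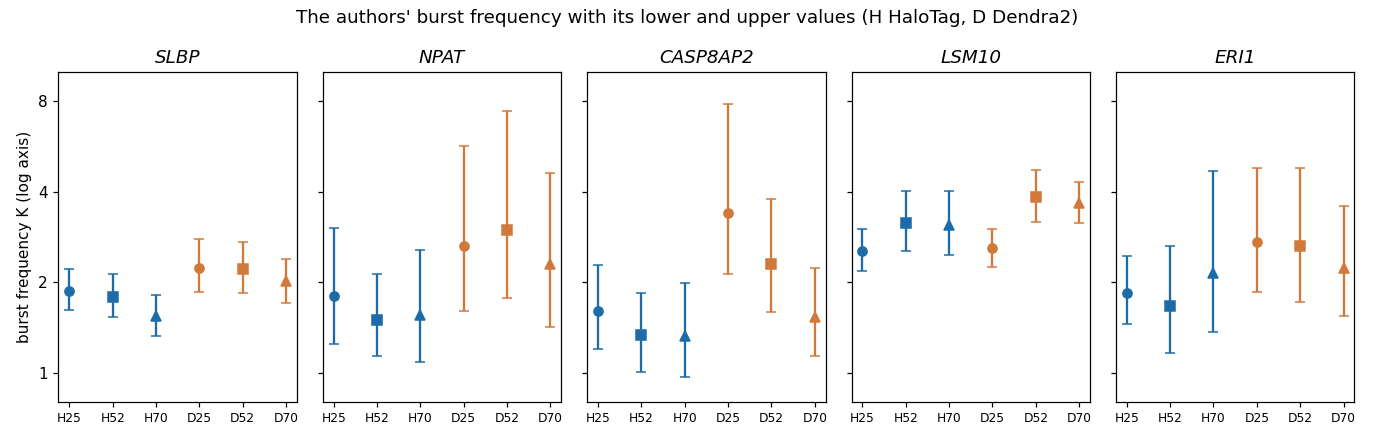
The authors' burst frequency K (log axis) with its lower and upper values for 5 genes in each library, HaloTag in blue and Dendra2 in orange. SLBP, NPAT and ERI1 have lower K estimates in all HaloTag libraries, with limits that overlap between tags. LSM11 and ZNF473 are not drawn because their limits are too wide.

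With limma on log10 K, all 7 genes had a lower fitted K with HaloTag, by a median of −0.13 log10. These include LSM11 and ZNF473, whose K was not determined in every library, and ZNF473 ran from −0.192 to 0.060 with 1 library left out. Of all genes 49.9% were above 0, with a median of −0.00085. Lower K was not particular to the 7, since 35 of 49 other pathway genes were also below 0 (median −0.06 log10). None of the 7 passed, and the differences were −0.10 log10 for SLBP (SE 0.09, adjusted p = 0.87) and −0.21 log10 for NPAT (SE 0.10, adjusted p = 0.843). Calls over all 21166 genes were 0% in burst frequency between tags, 0% for 25R against 52R, 0% for 70R against 52R and 0% for 70R against 25R. In burst size they were 0.0945% between tags, 0.0189% for 25R against 52R, 0% for 70R against 52R and 0.0189% for 70R against 25R. None of the 7 passed in any of these 8 limma comparisons. At an unadjusted p under 0.05 there were 0, 2, 1 and 2 of the 7 in burst frequency, in the same order, all of them LSM11 or ZNF473, whose K was not determined in every library, and 0 in each for burst size. Over all genes those shares were 5.64%, 5.77%, 5.39% and 5.89% in burst frequency, and 8.23%, 4.47%, 3.12% and 4.12% in burst size. LSM10 had the smallest p in burst size between tags, at −0.21 log10 (SE 0.09, unadjusted p = 0.0513, adjusted p = 0.608), with sizes of 0.223 to 0.495 in HaloTag and 0.402 to 0.587 in Dendra2 libraries.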

How the data were processed

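Single-cell 3′ libraries were processed by the authors with bcl2fastq and Cell Ranger against GRCh38, per the submitters' processing notes, the matrices' own headers naming version 6.1.2 of the latter (per the file headers). The deposited matrices hold whole UMI counts per gene and cell. The other values used, the mean, K and squared coefficient of variation with limits, are in the authors' deposited kinetic tables, for which no source used here names a tool version. HaloTag counts merge 2 sequencing runs per library.

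Barcodes under 500 genes or above 20% mitochondrial UMIs were dropped, 2.01% to 3.03% per library. The row of the tag sequence was left out, and no doublet caller was run. Cells of fewer than 5000 UMIs (34 to 217 per library) got no phase. Sums per library, and per library and phase, were filtered with filterByExpr, TMM scaled (prior count 2) and tested with edgeR 4.0.16 (quasi-likelihood) in R 4.3.3, adjusted by Benjamini-Hochberg over all genes tested, with a threshold of 0.05. The tag plus CTD fit has 2 residual degrees of freedom. In phase tests the genes of the phase scores were fitted and adjusted with the others, and left out of the counts of calls. DESeq2 1.42.0 was run beside it. For kinetic values, limma 3.58.1 was fitted to log10 values. Scripts were tested on simulated data. Python 3.11.15, pandas 2.3.3, numpy 2.4.6, scipy 1.17.1 and matplotlib 3.10.9 were used.

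The members and lists were chosen with earlier results of these data known. All 7 members are named in every comparison. Of other pathway genes, those past the threshold are named by size of change, at most 3 in each direction, or the 2 with the smallest p where none passed, and ATM always. For the interaction of tag and phase all genes that passed are named. Alternatives changed the tool, scaling, filters, cell weighting, phase scoring or the libraries used, and the tag comparison within phases was added after seeing the data.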

Additional observations from a re-analysis of the deposited data

Results flagged for a closer look

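Of the 50 other histone pathway genes, 7 differed between tags in their S against G1 difference by the edgeR test of the tag by phase term, all larger with HaloTag. Of all 17012 genes 188 did (1.11%), and 165 of these were larger with HaloTag. In G1 scoring cells all 38 genes of the S score were lower with HaloTag (median −0.60 log2), none past the threshold, and their part in these differences was not tested. For CDK1 the difference between tags was 1.26 log2 (adjusted p = 0.000711), for ASF1B, a histone chaperone, 1.22 log2 (0.00163), and for E2F1 0.95 log2 (0.000861). CDC25A, a phosphatase that activates CDK2, gave 0.92 log2 (adjusted p = 0.0253), CHAF1A, a chromatin assembly factor subunit, 0.82 log2 (0.00817), CCNE1 0.62 log2 (0.00253), and the histone chaperone NASP 0.30 log2 (0.00189). In each of these 7 genes every HaloTag library had a larger S against G1 difference than every Dendra2 library. The 7 were picked by a test of that same difference, so this order adds no support. How many of all genes show it was not counted. For E2F1 the G1 level was 8.29 to 9.52 CPM with HaloTag and 19.0 to 20.6 CPM with Dendra2, and the S level 42.2 to 56.5 and 52.7 to 62.5 CPM. All 7 calls were lost with phases scored without thinning (adjusted p 0.0819 to 0.51). Without thinning the differences were 0.47 log2 for CDK1, 0.61 for ASF1B, 0.665 for E2F1, 0.84 for CDC25A, 0.43 for CHAF1A, 0.47 for CCNE1 and 0.24 for NASP. The calls were also lost, all but that of CCNE1, with cells away from the phase boundary, where CDK1 gave 0.69 log2 and ASF1B 0.92 log2. The call on CDC25A was lost without HaloTag-RPB1-52R (0.75 log2), HaloTag-RPB1-70R (0.87) or Dendra2-RPB1-70R (0.63). That on CHAF1A was lost without HaloTag-RPB1-52R (0.76), HaloTag-RPB1-70R (0.74) or Dendra2-RPB1-25R (0.605), and that on CCNE1 without Dendra2-RPB1-70R (0.55).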

How the results depend on the processing

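Groups could not be paired by replicate, because they share replicate number 1 only. The phase fits compare phases within libraries, with library as a term, and the tag fits hold CTD length as a term. Each result was recomputed under 8 to 14 alternatives. The 6 of 7 genes called in S and in G2/M stayed at 6 in all 11 alternatives of each. Calls between tags were 1 with DESeq2 and 0 in the others. Calls on the tag by phase term were 2 with DESeq2, 1 with library totals, 2 with no filter on low counts, and 0 to 2 with 1 library left out. Reversed directions, all in differences that did not pass the threshold, were as follows. Between tags, CASP8AP2 gave 0.017 with library totals, 0.205 in S and 0.044 in G2/M scoring cells, ERI1 0.13 and 0.021 there, ZNF473 0.059 in G2/M and SLBP −0.017 in G1 scoring cells. LSM10 in S gave −0.0025 with library totals and −0.00401 away from the boundary, and in G2/M 0.033 with no filter, 0.061 without thinning and 0.00737 away from the boundary. The cause was not tested.

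With 1 library left out, log2 differences between tags ran from −0.0041 to 0.026 (SLBP) and −0.037 to 0.303 (LSM11). For 25R against 52R they ran from −0.044 to 0.0019 (SLBP), −0.049 to 0.019 (CASP8AP2) and −0.415 to 0.073 (NPAT). For 70R against 52R they ran from −0.087 to 0.193 (ERI1), −0.027 to 0.408 (LSM10) and −0.268 to 0.184 (LSM11). For 70R against 25R they ran from −0.30 to 0.136 (LSM10), −0.364 to 0.127 (NPAT) and −0.173 to 0.0027 (ATM). LSM10 ran from −0.025 to 0.029 in S and −0.025 to 0.030 in G2/M. Burst size between tags (log10) ran from −0.014 to 0.218 (CASP8AP2), −0.13 to 0.152 (ERI1), −0.041 to 0.067 (SLBP) and −0.239 to 0.042 (ZNF473), and burst frequency from −0.192 to 0.060 (ZNF473).

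Over all genes, calls between tags were 50 with edgeR, 1158 with DESeq2, 327 with no filter, and 0 to 152 with 1 library left out. For 25R against 52R they were 8, 507, 104 and 0 to 782, for 70R against 52R 0, 69, 2 and 0 to 3, and for 70R against 25R 0, 467, 50 and 0 to 746. On the tag by phase term they were 188, 224, 371 and 82 to 506, with 37 without thinning and 59 away from the boundary. Among genes of at least 0.5 UMIs per cell, which keeps only SLBP and LSM10 of the 7, 123 genes passed in burst frequency and 452 in burst size between tags. Without that filter 0 passed in burst frequency and 20 in burst size, the latter being 27 when centred on the median, 0 with no variance trend and 5 to 113 with 1 library left out. With 247 to 748 UMIs a library, ZNF473 and LSM11 allow only coarse values.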
